A study of Mus musculus with 13 samples.

Results

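The genes described here are the heat shock and chaperone genes of the mouse, 87 of the 56748 genes in the table. They were taken by name: every gene whose symbol begins with Hsp followed by a, b, d, e, h or a digit, with Dnaja, Dnajb or Dnajc, or with Cct and a digit from 2 to 8, together with Tcp1, Bag3 and Hsf1, and without the 17 names marked as pseudogenes by "-ps". No measured value entered this rule, although the set was put forward with earlier results of these data in view. In 70 of the 87 genes counts were high enough for a test. The other 17 stayed at or under 0.888 CPM (counts per 1000000) in every library, and 10 of them had no count at all.

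RNA was sequenced from splenic helper T cells, sorted for the T cell receptor and CD4 and against the Thy1.1 reporter of Foxp3, which both mouse lines carried. The 13 libraries fall into 5 groups. Eomes-TKO mice, whose construction the labels do not describe, received a 4-1BB agonist antibody (2 libraries) or control IgG (3 libraries), and their cells were not divided by Eomes. Eomes-GFP mice, which report Eomes by GFP, received the same agonist, and their cells were divided into a GFP+ fraction (3 libraries) and a GFP− fraction (3 libraries). Undivided cells of IgG-treated Eomes-GFP mice gave the last 2 libraries. Every mouse had been given 50 µg of antibody against NK1.1 on days −2 and 5 and Vk12653 myeloma cells on day 0. The agonist or IgG followed at 20 µg on days 10, 13 and 16, and spleens were taken on day 18. Libraries were prepared from 11 ng of RNA after removal of ribosomal RNA.

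Chaperones hold unfinished or damaged proteins until they fold. HSP70 proteins bind and release client peptides in a cycle of ATP hydrolysis that J proteins (the Dnaj genes) start and nucleotide exchange factors such as HSP110 proteins and BAG3 end. HSP90 takes over late-folding clients, among them kinases of T cell signalling, and the ring-shaped CCT complex folds actin and tubulin. The factor HSF1 raises cytosolic chaperones under heat or misfolding, while the unfolded protein response raises those of the endoplasmic reticulum (ER).

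Promoter sequences were searched for a motif of each response in an exact form only. A window without a match is therefore not shown to lack the element. RefSeq windows on GRCm38.p6, from 250 bases before to 50 after a start site, were found for 70 of the 87 genes. The heat shock element was searched as the 3 units GAA, TTC and GAA with 2 free bases between neighbours, and the ER stress element as CCAAT and CCACG with 9 free bases between them, each on both strands. The heat shock element was found in 0.662% of 27025 genes and in 4 of the 70 matched genes (5.71%), namely Dnajb6, Hspd1, Hspe1 and Hsph1. The ER stress element was found in 0.137% of genes and in 3 of 70 (4.29%), namely Dnajc3, Hsp90b1 and Hspa5. The windows shown belong to genes that carry the results below, and capitals mark the fixed letters of a match, which is a description and not a proven site. Hspe1 and Hspd1 face away from each other and share the 2 overlapping matches shown. Hspa8, Hsp90aa1, Hsp90ab1, Hspa13 and Hsf1 are among the 17 genes not matched, and no window of theirs was searched.
Hsph1 (chr5:149636266-149636565, strand -): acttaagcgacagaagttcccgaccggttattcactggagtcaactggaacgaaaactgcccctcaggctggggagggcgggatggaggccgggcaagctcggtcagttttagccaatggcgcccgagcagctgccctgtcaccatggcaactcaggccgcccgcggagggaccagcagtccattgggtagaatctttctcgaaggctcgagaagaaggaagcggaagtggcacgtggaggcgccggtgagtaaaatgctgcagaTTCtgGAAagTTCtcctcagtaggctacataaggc
Hspe1 (chr1:55087898-55088197, strand +): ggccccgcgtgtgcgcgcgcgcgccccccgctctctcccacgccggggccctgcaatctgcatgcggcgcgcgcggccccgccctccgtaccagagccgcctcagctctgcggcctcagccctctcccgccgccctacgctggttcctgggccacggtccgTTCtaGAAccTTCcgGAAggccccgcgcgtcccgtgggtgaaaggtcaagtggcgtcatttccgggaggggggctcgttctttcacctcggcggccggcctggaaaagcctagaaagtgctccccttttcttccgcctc
Dnajb6 (chr5:29735648-29735947, strand +): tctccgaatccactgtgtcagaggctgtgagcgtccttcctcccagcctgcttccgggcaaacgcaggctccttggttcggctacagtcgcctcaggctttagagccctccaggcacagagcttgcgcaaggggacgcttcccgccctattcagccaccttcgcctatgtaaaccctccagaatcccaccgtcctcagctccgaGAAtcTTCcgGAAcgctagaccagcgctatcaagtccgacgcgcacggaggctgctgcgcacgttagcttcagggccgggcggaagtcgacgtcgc
Hspa5 (chr2:34771840-34772139, strand +): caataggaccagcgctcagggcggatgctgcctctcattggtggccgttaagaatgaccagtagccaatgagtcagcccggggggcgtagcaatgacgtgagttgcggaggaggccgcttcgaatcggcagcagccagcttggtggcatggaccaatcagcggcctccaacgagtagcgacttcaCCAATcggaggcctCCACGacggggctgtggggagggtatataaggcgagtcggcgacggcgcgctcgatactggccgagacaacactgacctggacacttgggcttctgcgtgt
Hsp90b1 (chr10:86705395-86705694, strand -): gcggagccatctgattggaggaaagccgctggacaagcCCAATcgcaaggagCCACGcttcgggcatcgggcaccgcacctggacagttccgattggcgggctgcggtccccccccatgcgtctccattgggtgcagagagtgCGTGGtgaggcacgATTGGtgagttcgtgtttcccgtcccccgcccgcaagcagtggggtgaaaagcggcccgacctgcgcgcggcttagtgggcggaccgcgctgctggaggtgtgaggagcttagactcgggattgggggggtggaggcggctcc

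Library totals ran from 6080956 to 10881129 rounded counts, and the 87 genes took 0.6% to 0.855% of them. The 2 shallowest libraries, Eomes-TKO 4-1BB replicate 1 (6080956 counts) and Eomes-TKO IgG replicate 3 (7139604 counts), also held the lowest summed level of the 87 genes, at 5696 and 5976 CPM, against 7155 to 8867 CPM in the other 11. Eomes itself stood at 1.36 to 8.03 CPM in Eomes-TKO cells, 570.3 to 706 CPM in GFP+ cells, 1.83 to 3.54 CPM in GFP− cells and 14.0 to 16.8 CPM in undivided cells. The T cell markers Cd3e and Cd4 were high throughout, with Cd3e at 684 to 1487 CPM. All 4 listed T cell markers were called higher in GFP+ than in GFP− cells, with summed levels of 3225 to 4022 CPM in GFP+ and 2295 to 2446 CPM in GFP− cells (median log2 fold change 0.51), and their part in the differences between the fractions was not tested. Among plasma cell markers Tnfrsf17 was at 0 and Sdc1 at or under 0.487 CPM in every library, although Igkc reached 76.1 to 82.0 CPM in GFP+ cells, against 0 to 15.6 CPM elsewhere. Ighm, another of the 7 listed plasma cell genes, had 117 to 366 CPM. The 7 genes summed to 280.5 to 356 CPM in agonist-treated and 275 to 366 CPM in IgG-treated Eomes-TKO cells, 199 to 230.1 CPM in GFP+, 254 to 266 CPM in GFP− and 263 to 281 CPM in undivided cells, and their part in the results below was not tested. Replicates are read as separate animals only from the prefixes of their names, so a p-value covers no more than how these libraries varied. In bulk RNA, fewer cells that carry a transcript and less of it per cell cannot be told apart.

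Per kilobase of exon, RNA of the cytosolic HSP70 gene Hspa8 and the cytosolic HSP90 gene Hsp90ab1 led the set in all groups. Hspa8, the constitutive HSC70, was the most abundant. It averaged 284 ± 126 CPM per kilobase in agonist-treated Eomes-TKO cells (SD, n = 2), 325 ± 53.0 in IgG-treated Eomes-TKO cells (n = 3), 416 ± 9.56 in GFP+ cells (n = 3), 418 ± 45.1 in GFP− cells (n = 3) and 407 ± 51.2 in undivided Eomes-GFP cells (n = 2). Hsp90ab1, the constitutive HSP90, came next at 173 to 339 CPM per kilobase over the 13 libraries. Its range overlapped that of Hspa8, at 195 to 469.8. Hspa5, the ER chaperone BiP, ranked 3 with 83.0 to 162 CPM per kilobase, a range apart from that of Hsp90ab1. Below it stood Cct2 (55.5 to 96.3), Hsp90aa1 (45.8 to 91.1) and Hsp90b1, which encodes the ER protein GRP94 (35.1 to 105). These ranges overlapped each other and that of Hspa5. Next came Cct5 (38.4 to 72.8), Dnajb9 (27.6 to 60.6), Cct8 (31.0 to 51.8) and Hspd1, the mitochondrial HSP60 (18.0 to 49.2), again with overlap. The inducible HSP70 genes were almost silent. Hspa1b reached at most 5.00 CPM and Hspa1a at most 2.54 CPM. These 2 genes are near-identical copies, so the division of reads between them is uncertain.

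**Figure D1:**
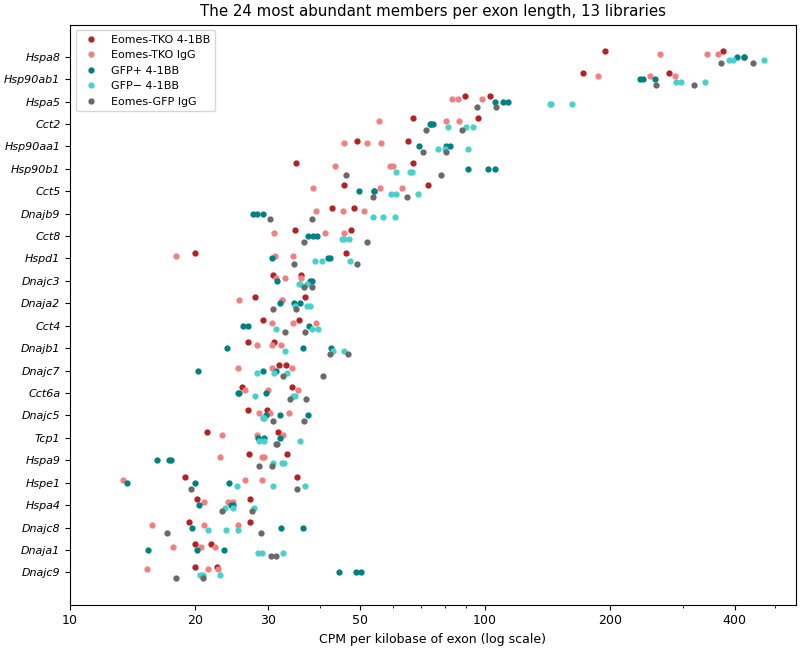
Level of the 24 most abundant genes of the set in CPM per kilobase of exon (log axis), with 1 point per library coloured by group. Hspa8 and Hsp90ab1 lead in all 13 libraries, and Hspa5 is set apart to the right in the 3 GFP− libraries.

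GFP+ cells were first compared with GFP− cells, both of agonist-treated Eomes-GFP mice and read as the same animals only from the prefixes of their names. The main test did not pair them, and animals as a block were an alternative. In edgeR's quasi-likelihood test, with Benjamini-Hochberg adjustment over all genes, 23 of the 70 tested genes differed at an adjusted p under 0.05, 9 higher and 14 lower in GFP+ cells. That is 32.9%, against 37.1% of all 14059 tested genes, so the share is near the background and is not a result about the set. By direction, 20.7% of all genes were higher and 16.5% lower. The median log2 fold change was −0.11 for the 70 genes and 0.02 for all genes, and errors of log2 changes are SE throughout. Upper-quartile scaling moved the median of all genes by −0.14 and the higher share of called genes from 55.7% to 41.4%, and with it 8 of the set were higher and 21 lower. In 4 of 9 role groups genes were called in both directions. The counts by role group below are to be read beside the shares of 20.7% and 16.5%. They rest on few genes and are not results about a group. Set against all 10 other libraries, 11 of 70 genes (15.7%) were higher in every GFP+ library and 11 (15.7%) lower, against 18.9% and 15.1% of all genes.

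**Figure D2:**
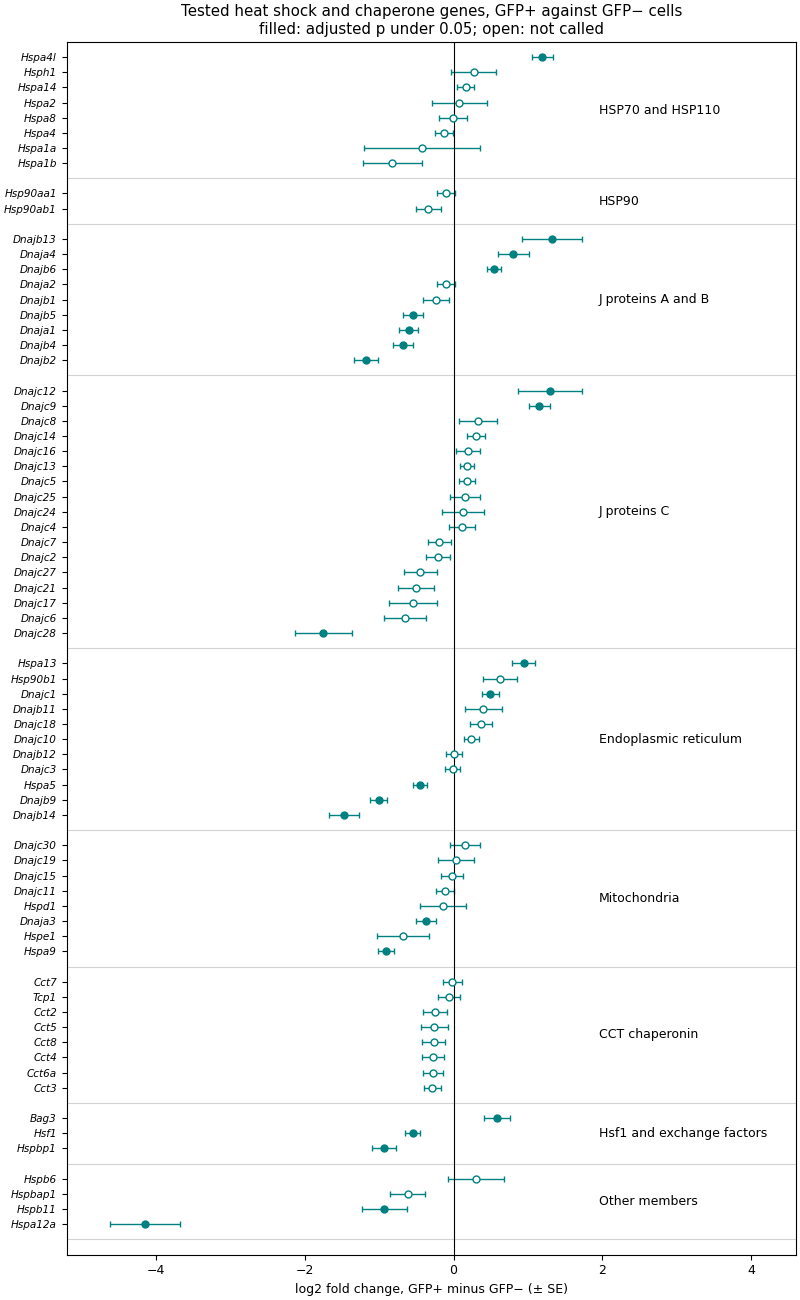
Log2 fold change of the 70 tested genes in GFP+ minus GFP− cells, grouped by role, with bars for 1 SE; filled points passed an adjusted p of 0.05 and open points did not. Hspa4l, Dnajc9 and Hspa13 lie to the right, Hspa12a and Hspa9 to the left, and the 8 CCT subunits form a tight column left of 0 with no call.

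Among cytosolic HSP70 and HSP110 genes 1 of 8 rose and none fell in GFP+ cells. That gene was Hspa4l, an HSP110-type exchange factor. It stood at 78.3, 102 and 86.1 CPM in GFP+ cells, against 31.2, 45.4 and 39.7 CPM in GFP− cells (adjusted p = 9.9e-06, log2 change 1.19 ± 0.14 SE). Every GFP+ library was above every other library, which ranged from 29.0 to 45.4 CPM. Its relatives Hsph1 and Hspa4 were not called, with log2 fold changes of 0.27 ± 0.30 and −0.13 ± 0.13. Hspa8 was not called, at 1813, 1813 and 1742 CPM in GFP+ cells and 1669.6, 2021 and 1702 CPM in GFP− cells (log2 change −0.01 ± 0.19). Neither HSP90 gene was called: Hsp90aa1, the inducible form, had 316, 272 and 324 CPM in GFP+ cells and 303, 358 and 315 CPM in GFP− cells. Hsp90ab1 had 719, 707 and 769.8 CPM in GFP+ cells, below the 867, 1015 and 892 CPM of GFP− cells in every library, without passing the test (adjusted p = 0.147). It passed with upper-quartile scaling (adjusted p = 0.0389), with no filter on low counts (adjusted p = 0.0145) and with both groups fitted alone (adjusted p = 0.0111).

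J proteins of the cytosol and nucleus divided in both directions. Of the 9 tested class A and B genes 3 rose and 4 fell, and of the 17 class C genes 2 rose and 1 fell. Dnajc9, a co-chaperone of histones H3 and H4, stood at 116, 106 and 119 CPM in GFP+ cells, against 54.5, 49.7 and 49.0 CPM in GFP− cells (adjusted p = 1.08e-05, log2 change 1.15 ± 0.13 SE). The groups did not overlap, and the other 10 libraries had 36.4 to 54.5 CPM. Genes of proliferation moved with it: 15 of 16 listed genes rose, with a summed level of 1514 to 1964 CPM in GFP+ and 720.1 to 816 CPM in GFP− cells, and their part in the Dnajc9 difference was not tested. Dnajb6, which restrains protein aggregation, had 142, 138 and 145 CPM in GFP+ cells, against 105, 94.7 and 92.1 CPM in GFP− cells (adjusted p = 0.000405, log2 change 0.54 ± 0.09 SE). Dnaja4 had 23.6, 24.7 and 17.7 CPM in GFP+ cells, against 12.9, 15.0 and 9.94 CPM in GFP− cells (adjusted p = 0.00609, log2 change 0.81 ± 0.20 SE). For all 3 genes the GFP+ libraries were the highest of the 13.

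Dnajb2, Dnajb4, Dnajb5 and Dnaja1 fell. Dnajb2, a J protein that binds ubiquitin chains, had 7.62, 9.43 and 7.63 CPM in GFP+ cells, against 17.1, 20.2 and 18.4 CPM in GFP− cells (adjusted p = 6.12e-05, log2 change −1.18 ± 0.16 SE). Dnaja1, a main partner of HSC70, had 175, 133 and 203 CPM in GFP+ cells, against 250.3, 281 and 245 CPM in GFP− cells (adjusted p = 0.00249, log2 change −0.61 ± 0.13 SE). Dnajb1, the J protein most tied to the heat shock response, was not called, at 76.4, 136 and 117 CPM in GFP+ cells and 105, 138 and 146 CPM in GFP− cells. Its GFP+ libraries were spread widely and overlapped the GFP− range. Dnajb4 and Dnajb5 had log2 fold changes of −0.68 ± 0.13 and −0.55 ± 0.14. The rare Dnajc28 fell to 1.12 ± 0.522 CPM in GFP+ cells, against 3.80 ± 0.630 CPM in GFP− cells (log2 change −1.75 ± 0.38). Dnajb13, a gene of motile cilia, and Dnajc12, a partner of aromatic amino acid hydroxylases, rose by 1.32 and 1.30 on the log2 scale, but neither averaged above 4.79 CPM in a group. The call of Dnajb13 ended without GFP+ replicate 1 or GFP− replicate 1 or 3 (adjusted p up to 0.0894), and that of Dnajc12 without GFP+ replicate 2 or 3 or GFP− replicate 2 or 3 (up to 0.115).

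ER chaperones also split, with 2 of 11 higher and 3 lower in GFP+ cells, against 20.7% and 16.5% of all genes. Hspa13, an HSP70 of the ER, had 32.7, 44.9 and 35.4 CPM in GFP+ cells, against 18.4, 20.7 and 19.6 CPM in GFP− cells (adjusted p = 0.000294, log2 change 0.94 ± 0.16 SE). Dnajc1, an ER J protein that also contacts ribosomes, had 119.6, 86.9 and 104 CPM in GFP+ cells, against 79.5, 72.6 and 67.9 CPM in GFP− cells (adjusted p = 0.00423, log2 change 0.50 ± 0.12 SE). For both genes the GFP+ libraries were the 3 highest of the 13, as they were for Hsp90b1. Hsp90b1, whose promoter carries 2 ER stress elements above, had 425, 367 and 409 CPM in GFP+ cells, above the 266, 268 and 246 CPM of GFP− cells in every library. It missed the threshold in edgeR (adjusted p = 0.0545, log2 change 0.62 ± 0.23 SE) and passed it in DESeq2 (adjusted p = 0.018) and limma-voom (adjusted p = 0.0363), and also with no filter on low counts or with both groups fitted alone.

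Hspa5 and its J protein partner Dnajb9 (ERdj4) went the other way. Hspa5 had 466, 446 and 479.9 CPM in GFP+ cells, against 609, 608 and 685 CPM in GFP− cells (adjusted p = 0.00229, log2 change −0.45 ± 0.10 SE). Dnajb9 had 74.3, 70.4 and 72.1 CPM in GFP+ cells, against 155, 137 and 145 CPM in GFP− cells (adjusted p = 8.72e-06, log2 change −1.01 ± 0.12 SE). Their 3 GFP− libraries were the highest of all 13, with the other 10 at 351 to 479.9 CPM for Hspa5 and 70.4 to 130.0 CPM for Dnajb9. Dnajb4, a cytosolic J protein at 42.8 to 44.0 CPM in GFP− cells and 23.8 to 38.7 CPM elsewhere, was the other such gene. Thus 3 of 70 genes (4.29%) were highest in GFP− cells, against 1.18% of all genes, and 0 of 70 lowest, against 1.4%. Dnajb14, an ER membrane J protein, fell most in this compartment, to 13.6, 9.30 and 9.24 CPM in GFP+ cells, against 32.3, 26.2 and 30.3 CPM in GFP− cells (adjusted p = 5.52e-05, log2 change −1.47 ± 0.20 SE). Of 11 tested immediate early genes 7 were lower in GFP+ cells, 3 were not called, and Ier3 was higher (log2 change 5.75). The summed level of 12 such genes was 2175 to 2535 CPM in GFP+, 4834 to 5003 CPM in GFP− and 3474 to 3614 CPM in undivided cells, and their part in the ER differences was not tested.

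**Figure D3:**
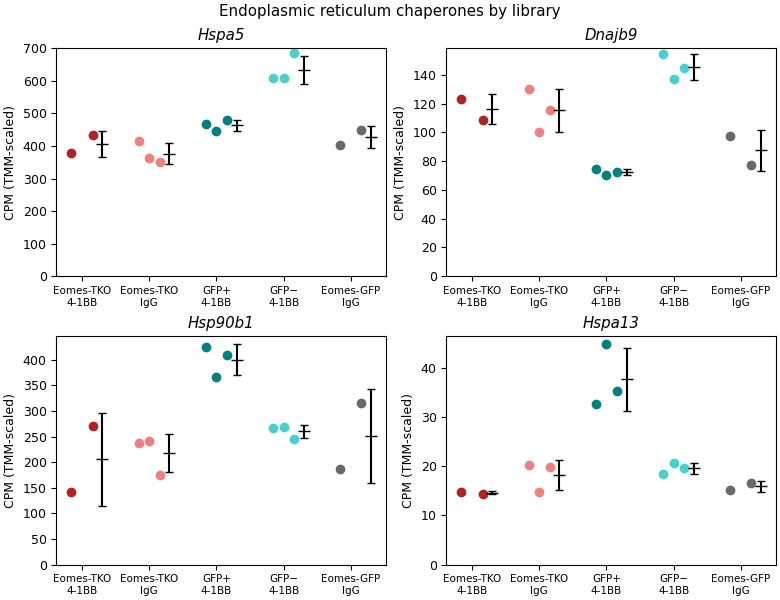
CPM of the ER chaperones Hspa5, Dnajb9, Hsp90b1 and Hspa13 in each library (points), with the group mean and SD beside them (bars; n = 2, 3, 3, 3 and 2 from left to right). Hspa5 and Dnajb9 peak in GFP− cells, whereas Hsp90b1 and Hspa13 peak in GFP+ cells.

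Of 25 tested genes of the unfolded protein response and ER folding outside the set, 5 rose and 3 fell in GFP+ cells (median log2 fold change 0.06). The sensors Atf6 (1.76 ± 0.19) and Ern1 (1.13 ± 0.14) were among those that rose. Atf6 had 100.3, 117 and 76.4 CPM in GFP+ cells, against 32.4, 33.3 and 21.4 CPM in GFP− cells (adjusted p = 6.47e-06). Sdf2l1 (0.94 ± 0.28), Sel1l (0.39 ± 0.11) and Pdia4 (0.37 ± 0.12) rose as well. Those that fell were Ppp1r15a, which restores translation after stress (−2.09 ± 0.27), Sec63 (−0.46 ± 0.12) and Atf4 (−0.26 ± 0.09).

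Mitochondrial chaperones fell in 2 of 8 genes and rose in none, against 16.5% of all genes lower and 20.7% higher. Hspa9, the mitochondrial HSP70 called mortalin, had 75.4, 69.9 and 74.8 CPM in GFP+ cells, against 133, 141 and 139 CPM in GFP− cells (adjusted p = 1.63e-05, log2 change −0.91 ± 0.11 SE). All 3 GFP+ libraries lay below the other 10, which ranged from 99.2 to 144 CPM. Its J protein Dnaja3 had 24.1, 25.0 and 28.4 CPM in GFP+ cells and 29.3, 38.9 and 32.3 CPM in GFP− cells (adjusted p = 0.0479, log2 change −0.37 ± 0.14 SE). That call ended once animals were blocked (adjusted p = 0.0509), in DESeq2 (adjusted p = 0.0504), in limma-voom (adjusted p = 0.0659), with no filter on low counts (adjusted p = 0.0650) and without GFP+ replicate 1 or 2 or GFP− replicate 2 or 3 (adjusted p up to 0.216). The chaperonin pair Hspd1 and Hspe1, which form the HSP60 and HSP10 folding chamber, was not called. Hspd1 had 111, 81.2 and 112 CPM in GFP+ cells and 107, 125 and 103 CPM in GFP− cells. Hspe1 had 29.5, 20.2 and 35.6 CPM in GFP+ cells and 45.5, 54.3 and 37.3 CPM in GFP− cells, and no GFP+ value reached the GFP− range (adjusted p = 0.153). Hspe1 was called lower with no filter on low counts (adjusted p = 9.84e-05) and with both groups fitted alone (adjusted p = 0.0213). Dnajc19 and Dnajc15, J proteins of the inner membrane import motor, had log2 fold changes of 0.03 ± 0.24 and −0.02 ± 0.14 and were not called. Of 10 mitochondrial partners and proteases outside the set 4 fell and none rose, namely Clpp (−0.60), Lonp1 (−0.50), Grpel1, the exchange factor of Hspa9 (−0.47), and Trap1, the mitochondrial HSP90 (−0.32).

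The CCT complex showed small differences of like sign. All 8 tested subunits had a negative log2 fold change in GFP+ cells, from −0.29 for Cct3 to −0.02 for Cct7 (median −0.26), and none was called. Cct3 was nearest the threshold, at 96.6, 89.6 and 100.5 CPM in GFP+ cells and 108, 123 and 119 CPM in GFP− cells (adjusted p = 0.0605). Tcp1, the founding subunit, had 148, 161 and 143 CPM in GFP+ cells and 143, 180.0 and 148 CPM in GFP− cells, with overlapping ranges. With upper-quartile scaling, which shifts all genes down in GFP+ cells, Cct3, Cct4, Cct6a and Cct8 were called lower. With both groups fitted alone Cct2, Cct3, Cct5 and Cct8 were called lower, and with a stricter filter on low counts Cct3 was. Per kilobase the subunits of this equimolar ring differed in RNA level from 13.3 to 20.6 CPM for Cct3 to 55.5 to 96.3 CPM for Cct2. Exon lengths came from GENCODE M21 and take in all annotated exons of a gene, so long rare exons lower such a value. None of 10 prefoldin and CCT cofactor genes outside the set was called.

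Hsf1, Hspbp1 and Bag3, the regulators listed apart from the HSP110 factors, all differed. Hsf1, the master regulator, had 68.9, 77.4 and 72.7 CPM in GFP+ cells, against 117, 106 and 98.4 CPM in GFP− cells (adjusted p = 0.000647, log2 change −0.55 ± 0.10 SE). It was lower in the 3 GFP+ libraries than in any of the other 10. Hspbp1, an exchange factor that inhibits HSP70, had 13.0, 13.1 and 12.4 CPM in GFP+ cells, against 23.9, 28.9 and 20.8 CPM in GFP− cells (adjusted p = 0.000462, log2 change −0.93 ± 0.17 SE). Bag3, which links HSP70 to selective autophagy, had 29.0, 24.2 and 25.1 CPM in GFP+ cells, against 17.1, 18.0 and 17.0 CPM in GFP− cells (adjusted p = 0.0152, log2 change 0.59 ± 0.17 SE). Bag3 lost its call with upper-quartile scaling and without GFP+ replicate 1 or GFP− replicate 3. Hsf2, a relative of Hsf1 outside the set, fell by 0.62 on the log2 scale, and the HSP90 co-chaperone Fkbp5, a glucocorticoid-responsive gene, rose by 1.79, at 179.9, 207 and 202 CPM in GFP+ cells and 50.9, 54.2 and 65.3 CPM in GFP− cells. These were the 2 called of 24 tested co-chaperone and HSF genes outside the set.

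Hspa12a, a distant HSP70 relative, had the largest difference of the set in size. It had 0.139, 0.524 and 0.107 CPM in GFP+ cells, against 4.39, 4.14 and 5.42 CPM in GFP− cells (adjusted p = 7.37e-06, log2 change −4.15 ± 0.47 SE). The other 10 libraries had 4.01 to 6.91 CPM, and 2 of the GFP+ values are below the level of 3 counts, which corresponds to 0.271 to 0.468 CPM. Hspb11, better known as the ciliary transport protein IFT25, fell to 2.63, 2.75 and 2.58 CPM in GFP+ cells, against 4.76, 6.34 and 4.15 CPM in GFP− cells, but its call ended without GFP+ replicate 1 or 3 or GFP− replicate 2 (adjusted p up to 0.105). Small heat shock proteins were close to absent, with summed levels of 1.46 to 4.38 CPM for 7 genes over all libraries, mostly Hspb6.

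Among abundant members that were not called between the fractions, several lay close to level. Dnajc3, the ER co-chaperone p58IPK whose promoter holds an ER stress element, had 197, 162 and 195 CPM in GFP+ cells and 183, 184 and 191 CPM in GFP− cells. Hspa14 and Dnajc2, which work together at the ribosome, had log2 fold changes of 0.16 ± 0.11 and −0.21 ± 0.16. Dnajc5, the cysteine string protein of secretory vesicles, had 0.18 ± 0.11, and Dnajc13, an endosomal J protein, had 0.18 ± 0.09. Less level was Dnajb11, an ER J protein that works with BiP. It had 71.7, 48.3 and 79.8 CPM in GFP+ cells and 52.2, 55.3 and 44.0 CPM in GFP− cells (adjusted p = 0.243, log2 change 0.40). With no filter on low counts Dnajb11 was called. Over the 47 genes not called the largest difference in size was that of Hspa1b, at −0.82 ± 0.40.

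**Figure D4:**
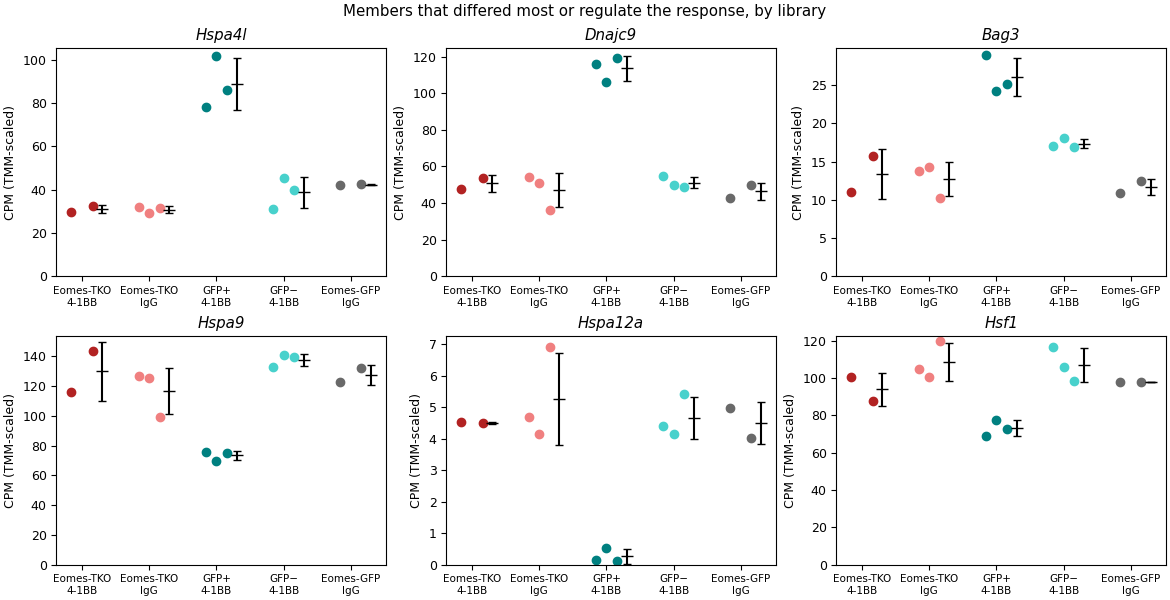
CPM per library (points) with group mean and SD (bars; n = 2, 3, 3, 3 and 2 from left to right) for Hspa4l, Dnajc9, Bag3, Hspa9, Hspa12a and Hsf1. The 3 GFP+ libraries stand above all others for Hspa4l, Dnajc9 and Bag3 and below all others for Hspa9, Hspa12a and Hsf1.

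Agonist-treated fractions were next set against undivided cells of IgG-treated Eomes-GFP mice, where treatment and GFP gate cannot be told apart. These comparisons share libraries with the first. In GFP+ cells 23 of 70 genes differed (32.9%, against 34.2% of all genes), 8 higher and 15 lower, against 18.8% and 15.4% of all genes. With upper-quartile scaling, which moved the higher share of all called genes from 54.9% to 41.9%, 7 were higher and 20 lower. Proliferation genes summed to 1514 to 1964 CPM in GFP+ and 362 to 435 CPM in undivided cells, and 7 myeloid markers to 8.32 to 40.3 CPM in GFP+ and 0.881 to 1.02 CPM in undivided cells, and their part in these differences was not tested. Bag3 had 29.0, 24.2 and 25.1 CPM in GFP+ cells, against 10.9 and 12.4 CPM in undivided cells (adjusted p = 0.000448, log2 change 1.16 ± 0.20 SE). Dnajc9 (1.29 ± 0.16 on the log2 scale), Hspa13 (1.24 ± 0.18), Dnaja4 (1.18 ± 0.24), Hspa4l (1.07 ± 0.16) and Dnajc1 (0.61 ± 0.13) were also higher. Hspa12a (−4.09 ± 0.49), Dnajb14 (−1.38 ± 0.22), Dnajb2 (−1.23 ± 0.18), Dnajb5 (−0.89 ± 0.15), Hspbp1 (−0.85 ± 0.18) and Hspa9 (−0.80 ± 0.12) were lower. Hspbap1, which binds small heat shock proteins, was lower too, at 25.4, 19.1 and 16.3 CPM in GFP+ cells and 36.1 and 36.5 CPM in undivided cells (adjusted p = 0.0214, log2 change −0.85 ± 0.26 SE), a call that ended without GFP+ replicate 2 or 3 or either undivided library. Among CCT subunits Cct3 (−0.39 ± 0.13) and Cct6a (−0.40 ± 0.15) were called lower. The Cct3 call ended without undivided replicate 2 (adjusted p = 0.181), and the Cct6a call without either undivided library or without GFP+ replicate 1 or 3 (adjusted p up to 0.197). Cct6a also missed the threshold with relative log expression scaling (adjusted p = 0.0529), in DESeq2 (adjusted p = 0.0519) and in limma-voom (adjusted p = 0.0541). Where an omission leaves 1 library in a group, that library is assumed to vary like those of the other groups. Leaving out undivided replicate 1 also ended the calls of Dnajb13, Dnajb4, Dnajc1 and Dnajc27, and leaving out undivided replicate 2 those of Dnaja3, Dnajb13, Dnajb4 and Hsf1. The Dnajb13 call ended as well with upper-quartile scaling, in limma-voom and with no filter on low counts (adjusted p up to 0.0700).

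In GFP− cells 2 of 70 genes were called (2.86%, against 0.761% of all genes), both higher, against 0.654% of all genes higher and 0.107% lower. The 2 were Hspa5 and Dnajb9. Hspa5 had 609, 608 and 685 CPM in GFP− cells, against 404 and 451 CPM in undivided cells (adjusted p = 0.0299, log2 change 0.57 ± 0.11 SE), and Dnajb9 had 155, 137 and 145 CPM in GFP− cells, against 97.5 and 77.4 CPM in undivided cells (adjusted p = 0.0232, log2 change 0.73 ± 0.13 SE). DESeq2 and limma-voom made the same 2 calls. Each ended on omission of every one of the 5 libraries in turn, with adjusted p from 0.0757 to 0.418 for Hspa5 and up to 0.344 for Dnajb9, and against a fold threshold of 1.5. Myeloid markers also differed, with a summed level of 7.44 to 24.1 CPM in GFP− cells and 0.881 to 1.02 CPM in undivided cells. Proliferation genes summed to 720.1 to 816 CPM in GFP− and 362 to 435 CPM in undivided cells. For immediate early genes the sums were 4834 to 5003 CPM and 3474 to 3614 CPM. The part of these 3 lists in the 2 calls was not tested.

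In cells of Eomes-TKO mice the heat-inducible cytosolic chaperones Hsph1 and Hsp90aa1 stood below Eomes-GFP cells in every library. In edgeR no gene of the set was called under IgG or against GFP− cells. Against GFP+ cells 24 of 70 were (34.3%, against 34.6% of all genes). Hsph1, whose promoter above carries a heat shock element, had 34.8 and 95.1 CPM in agonist-treated and 87.7, 75.7 and 61.5 CPM in IgG-treated Eomes-TKO cells. It had 144, 128 and 178 CPM in GFP+, 106, 157 and 111 CPM in GFP− and 133 and 147 CPM in undivided Eomes-GFP cells. Hsp90aa1 had 193 and 257 CPM in agonist-treated and 221, 204 and 180.0 CPM in IgG-treated Eomes-TKO cells, against 272 to 358 CPM in the 8 Eomes-GFP libraries. For these 2 of 70 genes (2.86%) all 5 Eomes-TKO libraries lay below all 8 Eomes-GFP libraries, as for 0.306% of all genes. Leaving out the 2 shallowest libraries cannot undo this, since fewer libraries are then compared. It added no further gene of the set below, while the share of all genes rose to 1.46%. No gene of the set lay above in all 5, against 0.555% of all genes, and without the shallowest 2 only Dnajc30 did, against 1.84%. The lowest Hsph1 value belonged to the shallowest library, Eomes-TKO 4-1BB replicate 1, and the lowest Hsp90aa1 value to Eomes-TKO IgG replicate 3. Summed over 14 heat-inducible genes, Eomes-TKO cells held 2004 to 3335 CPM after agonist and 2351 to 3165 CPM after IgG, and Eomes-GFP cells held 3444 to 3623 CPM in the GFP+ fraction, 3549 to 4262 CPM in the GFP− fraction and 3409 to 4013 CPM when undivided. All Eomes-TKO sums lay below all Eomes-GFP sums, but no share of such sums over all genes was counted. Hspa8 and Hsp90ab1 hold the most counts of the list, and each overlapped between genotypes. Hspa8 had 839 to 1608 CPM in Eomes-TKO and 1596 to 2021 CPM in Eomes-GFP cells, and Hsp90ab1 had 518 to 859 and 707 to 1015 CPM. The sum of all 87 genes overlapped too, at 5696 to 7724 and 7437 to 8867 CPM. Single genes of the list did not all follow: Dnajb4 had 37.5 and 31.2 CPM in agonist-treated Eomes-TKO cells and 29.2, 23.8 and 27.9 CPM in GFP+ cells, and Dnaja1 had 172 and 189 CPM in agonist-treated Eomes-TKO cells and 175, 133 and 203 CPM in GFP+ cells. The part of depth in these levels was not tested. Library names of both lines carry prefixes from separate number ranges, and the labels do not say what these stand for. Genotype therefore cannot be told apart from any difference in how both lines were handled.

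**Figure D5:**
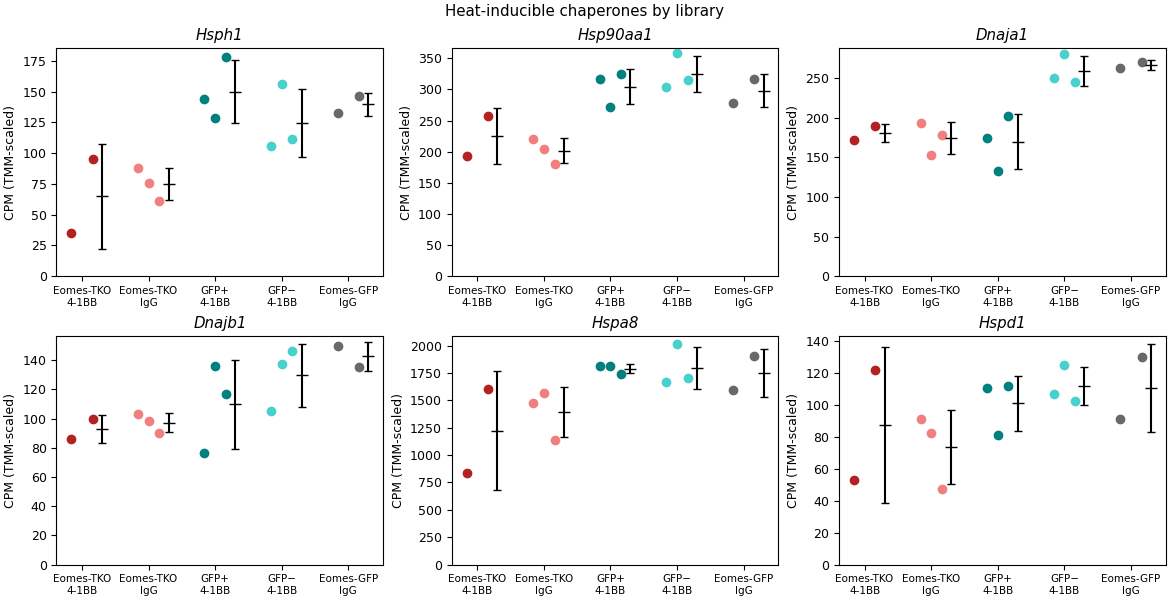
CPM per library (points) with group mean and SD (bars; n = 2, 3, 3, 3 and 2 from left to right) for 6 heat-inducible chaperones. For Hsph1 and Hsp90aa1 every Eomes-TKO point is below every Eomes-GFP point; for Hspa8 and Hspd1 the low points are Eomes-TKO 4-1BB replicate 1 and Eomes-TKO IgG replicate 3.

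Under control IgG, where both genotypes were undivided, no gene of the set was called by edgeR, DESeq2 or limma-voom, and 0.0142% of all genes (2 of 14059) were called by edgeR. At an unadjusted p under 0.05 there were 8 of 70 genes, and 430 of 14059. Earlier results of these data had already named Dnaja1 and Hsp90aa1 in this comparison, so its values are a description. Of 13 tested heat-inducible genes 12 had a negative log2 fold change in Eomes-TKO cells, with a median of −0.55, against 0.00 for all genes. Without both shallowest libraries, a setting chosen after seeing the data, 11 of 13 were negative and the median was −0.47, again against 0.00. Proliferation genes were also mostly lower, with 14 of 16 negative (median −0.27, 3 at an unadjusted p under 0.05), and their part in these differences was not tested. Dnaja1 had 193, 153 and 178 CPM in Eomes-TKO cells, against 262 and 271 CPM in Eomes-GFP cells (log2 change −0.61 ± 0.15). Dnajb1 had 103, 98.4 and 90.5 CPM in Eomes-TKO cells, against 149.8 and 136 CPM in Eomes-GFP cells (log2 change −0.55 ± 0.19). Hsph1 (−0.90 ± 0.34), Hsp90aa1 (−0.56 ± 0.14), Hspa4l (−0.46 ± 0.15), Hspd1 (−0.58 ± 0.35) and Hspa8 (−0.33 ± 0.22) likewise had no overlap between genotypes. In all, 9 of 70 genes (12.9%) lay lower without overlap, against 8.62% of all genes, Cct3 and Dnajc3 among them, and 5 (7.14%) lay higher, against 9.63%. The 5 were Dnaja4, Dnajb9, Hsf1, Hspb11 and Hspbp1. Without the shallow replicate 3, 11 genes (15.7%) lay lower, against 19.2% of all genes, and 13 (18.6%) higher, against 17.3%. With both shallowest libraries left out of the fit the log2 changes were −0.77 ± 0.19 for Hsph1, −0.48 ± 0.12 for Hsp90aa1, −0.34 ± 0.18 for Hspd1, −0.19 ± 0.12 for Hspa8 and −0.62 ± 0.17 for Dnaja1. In the fit of all libraries Bag3, at 0.13 ± 0.20, was the exception among the 13. The regulator Hsf1 had 105, 101 and 119.8 CPM in Eomes-TKO cells, above the 97.7 and 97.9 CPM of Eomes-GFP cells. With no filter on low counts 5 genes were called lower, namely Dnaja1, Dnajb1, Hsp90aa1, Hspd1 and Hsph1.

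The same genes were read in libraries that the last comparison did not use, agonist-treated Eomes-TKO against agonist-treated GFP− cells. Both hold little Eomes, but only the GFP− cells were sorted for low GFP. Again no gene of the set was called by edgeR, which called 0.0427% of all genes (0.00711% higher and 0.0356% lower), or by limma-voom, while DESeq2 called Hspa5 lower. At an unadjusted p under 0.05 edgeR counted 14 of 70 genes and 980 of 14059. All 13 heat-inducible genes had a negative log2 fold change (median −0.48, against 0.00 for all genes). The list was chosen with earlier results of these data known. Its genes were read in the same few libraries and are not replicates, so this count too is a description. Without both shallowest libraries, which leaves 1 agonist-treated Eomes-TKO library, 11 of 13 were negative and the median was −0.35, again against 0.00. Dnaja1 had 172 and 189 CPM in Eomes-TKO cells, against 250.3, 281 and 245 CPM in GFP− cells (log2 change −0.52 ± 0.15, adjusted p = 0.433). Hspa8 had 839 and 1608 CPM in Eomes-TKO cells, against 1669.6, 2021 and 1702 CPM in GFP− cells (log2 change −0.55 ± 0.22), the lower Eomes-TKO value being that of the shallow replicate 1. Hspa1b had 0.781 and 0.521 CPM in Eomes-TKO cells, against 2.44, 5.00 and 3.07 CPM in GFP− cells (log2 change −2.43 ± 0.54). Hspa5 had 378 and 435 CPM in Eomes-TKO cells, against 609, 608 and 685 CPM in GFP− cells (adjusted p = 0.0697, log2 change −0.64 ± 0.11 SE). Over the set, 14 of 70 genes (20%) were lower without overlap, against 10.8% of all genes, and 4 (5.71%) were higher, against 11.5%. The higher ones were Dnajb5, Dnajc10, Dnajc6 and Hspb6. With replicate 2 as the one Eomes-TKO library, 20 genes (28.6%) lay lower, against 26.5% of all genes, and 16 (22.9%) higher, against 28.2%. In the fit without both shallowest libraries the log2 changes were −0.39 ± 0.23 for Hsph1, −0.17 ± 0.14 for Hspa8, −0.46 ± 0.20 for Dnaja1 and −0.35 ± 0.14 for Hsp90aa1. With no filter on low counts 6 genes were called lower, namely Dnaja1, Hsp90aa1, Hspa1b, Hspa5, Hspa8 and Hsph1, and without Eomes-TKO 4-1BB replicate 2, which leaves only the shallow library in that group, assumed to vary like the other groups, Hspa8 and Hsph1 were called lower. Immediate early genes summed to 3344 to 3796 CPM in Eomes-TKO and 4834 to 5003 CPM in GFP− cells, and their part in these differences was not tested.

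Against GFP+ cells, agonist-treated Eomes-TKO cells differed in 24 of 70 genes (34.3%, against 34.6% of all genes), 12 higher and 12 lower, against 15.7% and 18.8% of all genes. With upper-quartile scaling, which moved the median of all genes by 0.16 and the higher share of called genes from 45.6% to 60.8%, 16 were higher and 9 lower. Of the 13 heat-inducible genes 10 had a negative log2 fold change (median −0.43, against 0.00 for all genes), 5 were called lower and none higher. Without both shallowest libraries 8 were negative, with a median of −0.12 against −0.01 for all genes, and 2 were called lower. All 16 proliferation genes and all 4 T cell markers were called lower in Eomes-TKO cells too, and their part in these differences was not tested. Hsph1 had a log2 fold change of −1.19 ± 0.36 (adjusted p = 0.0249), Hsp90b1 of −0.96 ± 0.27 (adjusted p = 0.0157) and Hsp90aa1 of −0.43 ± 0.14 (adjusted p = 0.0248). Without the shallow Eomes-TKO 4-1BB replicate 1 these became −0.63, −0.54 and −0.21 and none was called. The calls of Hsph1 and Hsp90aa1 also ended without GFP+ replicate 1 or 3 and with both groups fitted alone (adjusted p = 0.112 for Hsph1 and 0.137 for Hsp90aa1), that of Hsp90aa1 with upper-quartile scaling (adjusted p = 0.132), and that of the rare Hspa1b (−1.61 ± 0.55) without any of the 5 libraries. Without Eomes-TKO 4-1BB replicate 2, where the spread again comes from the other groups, Hspa8 was called lower (adjusted p = 0.000527), as it was in DESeq2 (adjusted p = 0.0398), in limma-voom (adjusted p = 0.0379) and with no filter on low counts. Hspa4l (−1.51 ± 0.16), Dnaja4 (−1.45 ± 0.24), Hspa13 (−1.37 ± 0.19) and Dnajc9 (−1.16 ± 0.16) were also lower in Eomes-TKO cells. Hspa12a (4.10 ± 0.49), Dnajb14 (1.62 ± 0.22), Dnajb2 (1.20 ± 0.18), Hspbap1 (1.17 ± 0.26), Hspbp1 (0.98 ± 0.18), Dnajb5 (0.86 ± 0.15) and Hspa9 (0.83 ± 0.12) were higher. These 11 calls held on omission of each of the 5 libraries in turn, with the same assumption where 1 Eomes-TKO library was left. Dnajc6, the auxilin that uncoats clathrin vesicles, was higher as well, at 10.5 and 10.8 CPM in Eomes-TKO cells, against 3.74, 3.93 and 4.41 CPM in GFP+ cells (adjusted p = 0.0024, log2 change 1.40 ± 0.30 SE).

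The agonist changed no gene of the set detectably within Eomes-TKO mice, again with 0 of 70 called by edgeR, DESeq2 and limma-voom against 0.0427% of all genes, and with 3 of 70 at an unadjusted p under 0.05, against 506 of 14059. The median log2 fold change was 0.01 for the set and 0.00 for all genes. Hspa5 had 378 and 435 CPM after agonist, against 415, 364 and 351 CPM after IgG (log2 fold change 0.11 ± 0.11), and Hsp90ab1 had 518 and 833 CPM after agonist, against 749.7, 859 and 563 CPM after IgG (log2 fold change −0.10 ± 0.19). Both pairs of ranges overlapped. The 2 agonist libraries stood apart for several genes, as the values of Hsph1 and Hspa8 above show, which limits what this comparison could detect.

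Over the 7 comparisons 32 of the 70 tested genes were called at least once (45.7%, against 45.4% of all 14059 genes) and 38 never. The 38 include Hspa8, Hspa4, Hspd1, Hspe1, Hsp90ab1, Dnajb1, Dnaja2 and most CCT subunits. Those too low to test included Cct6b, Cct8l1, Dnajb3, Dnajb7, Dnajb8, Dnajc22, Dnajc5b, Dnajc5g, Hspa12b, Hspa1l, Hspb1, Hspb2, Hspb3, Hspb7, Hspb8 and Hspb9. Several are testis or muscle genes, and Hspb1, a classical heat-inducible gene, was among them. Genes such as Hspa8, Hspd1 and Hspe1 have many processed pseudogenes, and reads shared with these are uncertain; the 17 "-ps" names left out summed to 0.625 to 1.96 CPM per library.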

How the data were processed

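The authors deposited estimated counts for each gene and library, made with tools that the submitters' processing notes name without their roles, namely GRCm39 as the build, Salmon 1.5.2, STAR 2.7.10a, cutadapt 3.4 and Trim Galore 0.6.7; the annotation and the strand setting are not given in the sources used here, so reads of overlapping or antisense genes may be shared. Counts were rounded (6.25% to 7.33% of a library's values were not whole). A further 34 library columns that match no label were not used.

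Genes that passed filterByExpr (14059) entered edgeR 4.0.16 under R 4.3.3 (TMM scaling, quasi-likelihood test, two-sided, Benjamini-Hochberg threshold 0.05 over all genes). The model held 13 libraries in 5 groups with 8 residual degrees of freedom, and the script was tested on simulated data. CPM are TMM-scaled. Errors are SD between libraries for levels and SE for log2 fold changes. A level of 3 counts equals 0.271 to 0.468 CPM and covers counting error only. Alternatives were DESeq2 1.42.0, limma-voom 3.58.1, other scalings and filters, the compared groups alone, a fold threshold of 1.5, animals as a block and omission of each library.

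GFP+ and GFP− libraries with the same name prefix were read as the same animal. Over all tested genes, deviations from the group means correlated at 0.397, 0.111 and 0.0491 in these pairs and at −0.316 to 0.220 in the others. Over the tested genes of the set they correlated at 0.299, −0.251 and −0.235 in these pairs and at −0.41 to 0.469 in the others. The correlations of the set thus did not set the same-prefix pairs apart. Replicates differed beyond counting noise (chi-square per degree of freedom 7.74 to 29.2).

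Members and gene lists were chosen with earlier results of these data known. Values per library are given where a result turns on Hspa1a, Hspa1b, Hspa8, Hsph1, Hsp90aa1, Hsp90ab1, Hspa5, Hsp90b1, Dnajb1, Dnaja1, Hspd1, Hspe1, Tcp1, Bag3 or Hsf1. They are also given for called genes with the largest fold change, up to 6 per direction and comparison, that reach a mean log2 CPM of 2. Other genes were named after their values were seen. Markers of red cells and of CD8 and natural killer cells summed to at most 3.29 and 20.5 CPM. Exon lengths are from GENCODE M21, and promoter windows are on GRCm38.p6, an older build than that of the counts.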

Additional observations from a re-analysis of the deposited data

How the results depend on the processing

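The number of called genes of the set stayed within 1.5 times the reported count under most settings. Against a fold threshold of 1.5 it fell to 10 of the reported 23 for GFP+ against GFP− cells, to 9 of 23 for GFP+ against undivided cells, to 0 of 2 for GFP− against undivided cells and to 11 of 24 for agonist-treated Eomes-TKO against GFP+ cells. With no filter on low counts it was 5 rather than 0 between genotypes under IgG and 6 rather than 0 for agonist-treated Eomes-TKO against GFP− cells, where DESeq2 gave 1; the cause was not tested. Leaving out 1 library at a time gave 19 to 22, 17 to 22 and 17 to 22 calls in the 3 comparisons with GFP+ cells, in the order above, 0 in each case for GFP− against undivided cells, 0 to 2 for agonist-treated Eomes-TKO against GFP− cells, and 0 for the other pairs. The animal as a replicate block left the count at 23 and exchanged Dnaja3 (adjusted p = 0.0509) for Hspbap1 (adjusted p = 0.0393, against 0.0567 without the block), and it changed no other call of the set. Without both shallowest libraries, a setting chosen after seeing the data, agonist-treated Eomes-TKO against GFP+ cells gave 20 calls, 12 higher and 8 lower, and the other comparisons with Eomes-TKO cells 0. Of 2168 recomputed fold changes of named genes 147 lost and 36 gained a call. None changed sign where the gene was called in either fit, and changes of sign without a call were not counted. Depth limits the rare members: Hspa1a, Hspa1b, Dnajb13, Dnajc12 and Dnajc28 rest on few counts, and groups of 2 libraries give wide errors.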
